A study of Homo sapiens with 6 samples.

Results

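The 10 genes described here encode human poly(A) polymerases and terminal nucleotidyltransferases, enzymes that add nucleotides to the 3′ end of RNA without a template. They are TENT5A, TENT5B, TENT5C, TENT2, TENT4A, TENT4B, PAPOLA, PAPOLG, MTPAP and TUT1, taken by symbol from the 61552 genes in the deposited tables. The set was chosen by the fold change and p of TENT5C in the comparison of cisplatin with PBS below, the clearest rise of any gene, so the values of TENT5C are a description and carry no test. The 9 others were listed by enzyme family. RNA was sequenced from NCI-H520, an established line of lung squamous cell carcinoma, after 48 h with cisplatin at 2 µM, a DNA-crosslinking platinum compound, or with phosphate-buffered saline (PBS) for the same time. Each group held 3 libraries. Both groups carried the genotype given as WT and were grown in RPMI-1640 with 15% serum, and nothing in the labels says that the replicates were separate cultures, so every p-value refers to the variation among these libraries alone, which could be technical.

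A poly(A) tail protects an mRNA from decay and helps its translation. PAPOLA makes the tail in the nucleus, directly after the transcript has been cleaved, whereas the TENT5 enzymes act in the cytoplasm and lengthen tails that already exist, in particular on mRNAs of secreted proteins translated at the endoplasmic reticulum. TENT5C, formerly FAM46C, is best known from plasma cells, where it acts on immunoglobulin mRNAs, and from multiple myeloma, in which the gene is recurrently mutated or deleted. The other members serve other compartments or substrates, among them mitochondrial mRNAs (MTPAP), the U6 spliceosomal RNA (TUT1) and nuclear RNAs marked for trimming or decay (TENT4A and TENT4B).

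The promoters of the 3 TENT5 genes are shown first because these members were higher in every cisplatin library than in every PBS library in CPM. For TENT5A the difference was small, and its call was lost in 11 of 19 alternatives. Each window runs from 250 bases before to 50 bases after the RefSeq start in GRCh38.p14, 5′ to 3′ on the gene's strand, with TENT5C at chr1:117605798-117606097 (plus strand), TENT5B at chr1:27012801-27013100 (minus strand) and TENT5A at chr6:81752632-81752931 (minus strand). Capitals mark GGGCGG (the GC box) and CCAAT, both searched on either strand, and TATAA, searched on the gene's strand only.
TENT5C: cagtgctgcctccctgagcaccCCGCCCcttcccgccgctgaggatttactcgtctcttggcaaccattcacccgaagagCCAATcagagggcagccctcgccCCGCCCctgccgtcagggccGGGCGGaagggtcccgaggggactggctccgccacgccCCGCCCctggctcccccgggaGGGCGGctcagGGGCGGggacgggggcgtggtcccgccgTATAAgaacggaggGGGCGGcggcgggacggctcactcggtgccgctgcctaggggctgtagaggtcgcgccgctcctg
TENT5B: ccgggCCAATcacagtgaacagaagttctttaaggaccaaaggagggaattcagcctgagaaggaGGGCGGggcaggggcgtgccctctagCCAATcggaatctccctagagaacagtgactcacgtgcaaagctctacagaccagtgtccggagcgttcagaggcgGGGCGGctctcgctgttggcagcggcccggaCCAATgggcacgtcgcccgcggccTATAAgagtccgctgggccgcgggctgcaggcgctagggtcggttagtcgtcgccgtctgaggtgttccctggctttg
TENT5A: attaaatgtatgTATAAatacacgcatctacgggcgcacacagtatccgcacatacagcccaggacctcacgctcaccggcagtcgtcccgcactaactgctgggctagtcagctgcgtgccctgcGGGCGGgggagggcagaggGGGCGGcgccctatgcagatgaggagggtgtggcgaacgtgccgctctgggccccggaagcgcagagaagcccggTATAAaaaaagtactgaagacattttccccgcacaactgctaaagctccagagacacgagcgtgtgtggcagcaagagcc

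Counted from the RefSeq start, all 3 windows held TATAA close to the place usual for a TATA box. It began 29 bases before that start in TENT5C, 28 in TENT5B and 30 in TENT5A, which holds another farther upstream. The GENCODE 29 gene starts used below differ, at 117605934 for TENT5C, 27012836 for TENT5B and 81752774 for TENT5A. From these, the TATAA so placed in TENT5C and TENT5A lies inside the gene, and only that of TENT5B remains upstream. None of the windows of the 6 other members in the RefSeq table held TATAA anywhere. Across 35116 promoter windows, 14.8% held TATAA at any position and 3.70% held it 35 to 20 bases before the start. TENT5C carried 7 GC boxes and 1 CCAAT box, TENT5B 2 GC boxes and 3 CCAAT boxes, and TENT5A 2 GC boxes and no CCAAT box, against shares of 45.0% of all windows with a GC box and 34.6% with a CCAAT box. These motifs were picked after the sequences had been read, and a match describes the letters only.

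Libraries held between 9925328 and 16724285 expected counts in the cisplatin group and between 9121180 and 15589897 in the PBS group. In all, 15063 genes passed the low-count filter and were tested with edgeR's quasi-likelihood test, and 38.2% of them were called at a Benjamini-Hochberg adjusted p under 0.05 (18.9% higher and 19.3% lower under cisplatin). Levels below are CPM, counts scaled to library size by TMM, unless TPM is named. They are relative to the other mRNAs of a library, so a change in total RNA per cell was not measured, and in bulk RNA fewer cells of a type and less RNA per cell cannot be told apart. The squamous label was only partly borne out by its defining markers: SOX2 was abundant and KRT5 and KRT6A were low, whereas DSG3 had 0 counts in all 6 libraries and TP63 and KRT14 did not pass the low-count filter. The 6 epithelial markers, led by KRT8, summed to 2760 to 2930 CPM in cisplatin libraries and 2270 to 2440 CPM in PBS libraries. B cell and plasma cell markers, the lineage in which TENT5C is best studied, summed to 0.178 to 0.698 CPM over 7 genes in cisplatin libraries and 0.418 to 0.723 CPM in PBS libraries, with MS4A1, CD79B and JCHAIN at 0 counts. Erythroid and T or NK cell markers each summed to under 1 CPM in every library. The 6 fibroblast markers summed to 22.6 to 24.4 CPM under cisplatin and 11.0 to 15.5 CPM under PBS, nearly all of it COL1A1, with COL3A1 at 0 counts. The part of these markers in the changes below was not tested.

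In the cisplatin libraries all 3 TENT5 genes stood above their PBS levels, by 4.14-fold for TENT5C, 1.92-fold for TENT5B and 1.18-fold for TENT5A. PAPOLA, the main nuclear poly(A) polymerase, and TENT4A fell, to 0.748 and 0.808 of their PBS levels. TENT2, TENT4B, PAPOLG, MTPAP and TUT1 did not pass the test. Of the 9 members other than TENT5C, 2 were called higher and 2 lower, which is 44.4% and close to the 38.2% called among all genes, so the number of calls does not set the family apart. In 2 of these 9 every cisplatin library was above every PBS library in CPM (25.2% of all tested genes). In 2 every cisplatin library was below (24.5%). Groups that did not overlap, in either direction, made up 49.7% of all tested genes. TENT5C, chosen for its rise, also had groups that lay apart and is left out of these counts.

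**Figure D1:**
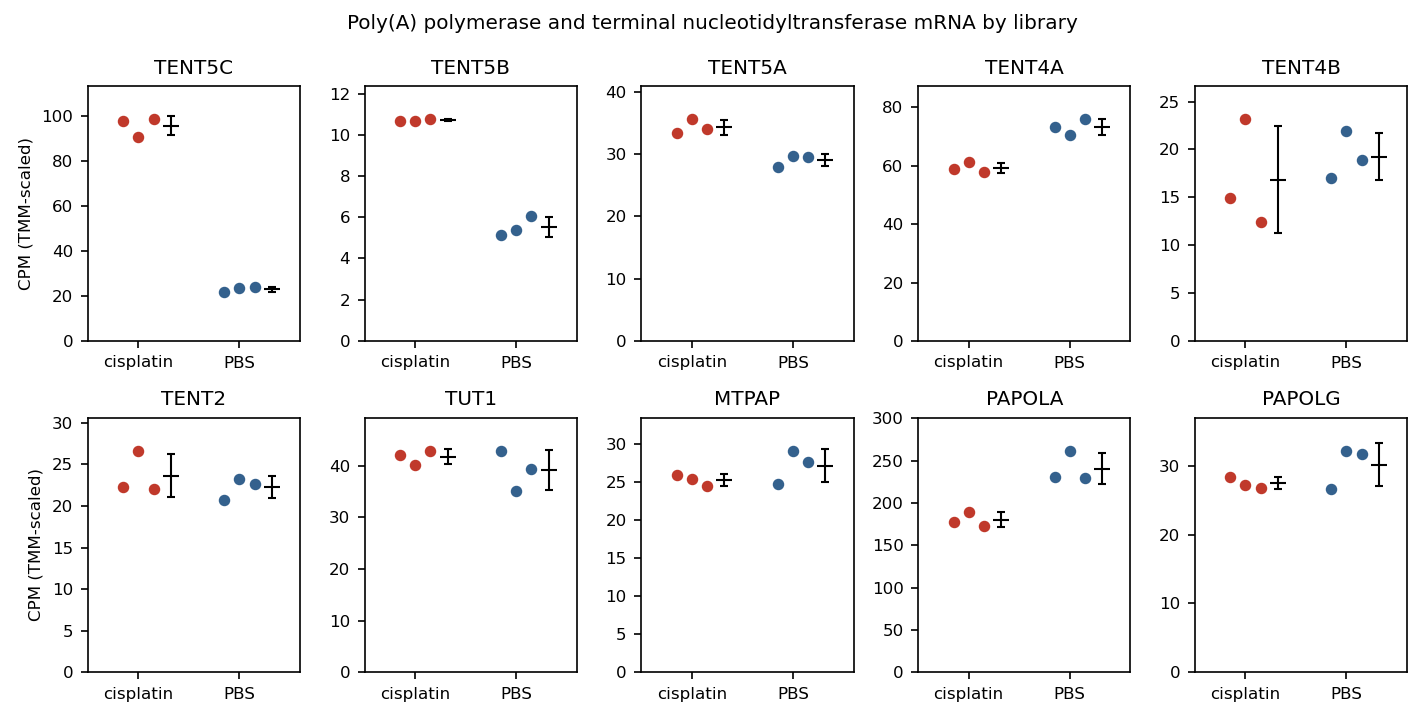
CPM (TMM-scaled, each axis from 0) of the 10 genes in the 3 cisplatin libraries (red, left) and the 3 PBS libraries (blue, right); the bar gives the mean and SD of each group. The groups lie apart for TENT5C, TENT5B, TENT5A, TENT4A and PAPOLA and overlap for the other members.

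TENT5C (ENSG00000183508; chromosome 1, 117605934 to 117628372 in GRCh38, plus strand) had 97.8, 90.8 and 98.5 CPM in the cisplatin libraries, against 21.8, 23.5 and 23.8 CPM in the PBS libraries. These rested on 981, 1019 and 1640 counts under cisplatin and 195, 357 and 342 counts under PBS. The lowest cisplatin library was thus far above the highest PBS library, and the libraries within each group lay close together. The means were 95.7 ± 4.28 CPM under cisplatin and 23.0 ± 1.11 CPM under PBS (SD, n = 3), a log2 fold change of 2.05 ± 0.08 (SE). Of the 2851 genes called higher, TENT5C ranked 1 by p and 43 by fold change, which is the property it was chosen for. Only 0.03% of the 31-base words of its transcript occur in a transcript of another gene in GENCODE 29, and none in another member. The deposited tables gave it the same transcript length of 5654 bases in every library, so its value does not depend on how reads were divided among isoforms.

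Neither of the nearest tested genes stood higher under cisplatin. MAN1A2, a mannosidase of N-glycan trimming that ends 77062 bases before TENT5C and is the nearest tested gene on that side, had 31.9 ± 1.08 CPM under cisplatin and 40.8 ± 3.78 CPM under PBS (SD, n = 3), and fell by 0.36 ± 0.09 on the log2 scale (edgeR adjusted p = 0.00913). GDAP2 lies on the minus strand, with its nearer end 235113 bases beyond the end of TENT5C. It had 133 ± 2.17 CPM under cisplatin and 169 ± 24.9 CPM under PBS, and fell by 0.34 ± 0.10 (edgeR adjusted p = 0.0140). With the offset for the trend with transcript length, MAN1A2 was at -0.0179 (edgeR adjusted p = 0.895). With the offset for effective length the calls of both were lost (MAN1A2 -0.36, edgeR adjusted p = 0.0626; GDAP2 -0.12, edgeR adjusted p = 0.331). They were also lost on log2(TPM + 1) (MAN1A2 -0.38, limma adjusted p = 0.134; GDAP2 -0.20, limma adjusted p = 0.209), and that of GDAP2 also without cisplatin replicate 1 (edgeR adjusted p = 0.0535). TENT5C-DT, a noncoding divergent transcript on the opposite strand that begins just upstream of TENT5C, had 0 counts in all 6 libraries.

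TENT5B (ENSG00000158246; chromosome 1, 27005020 to 27012836, minus strand), a paralog about which less is known, had 10.7, 10.7 and 10.8 CPM in the cisplatin libraries, against 5.14, 5.39 and 6.07 CPM in the PBS libraries. Every cisplatin library was above every PBS library, and the cisplatin libraries were nearly equal to each other. The log2 fold change was 0.94 ± 0.14 (SE; edgeR adjusted p = 3.0e-04), with a 95% interval of the fold change from 1.57 to 2.36. These rested on few counts, 107, 120 and 179 under cisplatin and 46, 82 and 87 under PBS. Its transcript shares no 31-base word with another gene.

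TENT5A (ENSG00000112773; chromosome 6, 81491439 to 81752774, minus strand), which in mice lengthens collagen mRNA tails in bone-forming cells, differed less. It had 33.4, 35.6 and 34.0 CPM in the cisplatin libraries, against 28.0, 29.8 and 29.6 CPM in the PBS libraries, and the groups did not overlap. The log2 fold change was 0.23 ± 0.08 (SE; edgeR adjusted p = 0.0439). This call is fragile: it did not survive leaving out any of the 3 cisplatin libraries or PBS replicate 1 or 3 (edgeR adjusted p 0.0788 to 0.130), nor did it hold in DESeq2 (0.130) and on log2(TPM + 1) (0.13, limma adjusted p = 0.547), while the offset for the trend with transcript length gave 0.47 (edgeR adjusted p = 7.8e-04).

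The makeup of the TENT5 family differed between the groups, which follows largely from the rise for which TENT5C was chosen. Summed over the TENT5 genes, the level per transcript length was 31.3, 29.9 and 30.4 TPM in the cisplatin libraries, against 12.5, 13.1 and 15.8 TPM in the PBS libraries. TENT5C made up 60.4% ± 1.44 of that sum under cisplatin and 34.4% ± 0.210 under PBS (SD, n = 3). TENT5D, the remaining paralog, had 0 counts in every library.

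**Figure D2:**
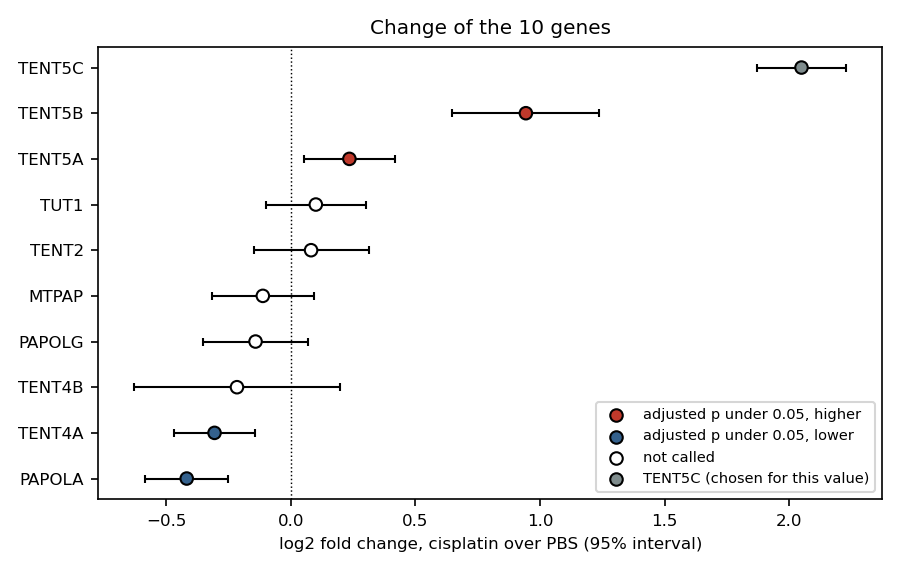
Log2 fold change of CPM, cisplatin over PBS, for the 10 genes, with the 95% interval from edgeR's quasi-likelihood fit (n = 3 a group); red points were called higher, blue points lower, white points were not called, and grey marks TENT5C, which was chosen for this value. The TENT5 genes lie at the top (2.05, 0.94 and 0.23) and PAPOLA at the bottom (-0.42).

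PAPOLA (ENSG00000090060; chromosome 14, 96501433 to 96567111, plus strand), the canonical nuclear enzyme, had 178, 190 and 173 CPM in the cisplatin libraries, against 231, 262 and 230 CPM in the PBS libraries. All cisplatin libraries were below all PBS libraries. PAPOLA fell by 0.42 ± 0.08 on the log2 scale (SE; edgeR adjusted p = 0.00138), a fold of 0.748 with a 95% interval from 0.666 to 0.841, and the call held under all 19 alternatives tried. PAPOLG (ENSG00000115421; chromosome 2, 60756230 to 60802085), a second nuclear poly(A) polymerase related to PAPOLA, had 28.4, 27.3 and 26.8 CPM under cisplatin, against 26.6, 32.2 and 31.7 CPM under PBS. Those ranges overlapped, because PBS replicate 1 lay below every cisplatin library. Its log2 fold change was -0.14 ± 0.10 (edgeR adjusted p = 0.272; 95% interval -0.35 to 0.07).

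TENT4A and TENT4B are nuclear and cytoplasmic polymerases that can add tails with occasional guanosines, and TENT4B works with the exosome in RNA quality control. TENT4A (ENSG00000112941; chromosome 5, 6713007 to 6757048) had 58.8, 61.2 and 57.7 CPM in the cisplatin libraries, against 73.3, 70.6 and 75.9 CPM in the PBS libraries, with no overlap. TENT4A fell by 0.31 ± 0.08 on the log2 scale (edgeR adjusted p = 0.00697). An offset for the trend with transcript length ended the call (-0.13, edgeR adjusted p = 0.153), as did log2(TPM + 1) (-0.39, limma adjusted p = 0.0546). TENT4B (ENSG00000121274; chromosome 16, 50152918 to 50235310) had 14.9, 23.2 and 12.4 CPM under cisplatin, against 17.0, 21.9 and 18.9 CPM under PBS. Cisplatin replicate 2 was the highest of the 6 libraries and the other cisplatin libraries were the lowest. Its log2 fold change was -0.22 ± 0.19 (edgeR adjusted p = 0.394), and without cisplatin replicate 2 it was called lower (-0.50, edgeR adjusted p = 0.0205).

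TENT2 (ENSG00000164329; chromosome 5, 79612120 to 79686648), also called GLD2, extends tails of dormant cytoplasmic mRNAs with CPEB proteins. It had 22.3, 26.6 and 22.0 CPM in the cisplatin libraries, against 20.8, 23.3 and 22.7 CPM in the PBS libraries (log2 fold change 0.08 ± 0.11, edgeR adjusted p = 0.578; 95% interval -0.15 to 0.31). MTPAP (ENSG00000107951; chromosome 10, 30309801 to 30374448), which makes the tails of mitochondrial mRNAs, had 25.9, 25.5 and 24.5 CPM under cisplatin, against 24.8, 29.1 and 27.6 CPM under PBS (-0.11 ± 0.10, edgeR adjusted p = 0.373; 95% interval -0.32 to 0.09). TUT1 (ENSG00000149016; chromosome 11, 62575045 to 62592177), which adds uridines to the U6 RNA and can also act as a nuclear poly(A) polymerase, had 42.2, 40.2 and 42.9 CPM under cisplatin, against 42.9, 35.1 and 39.4 CPM under PBS (0.10 ± 0.09, edgeR adjusted p = 0.416; 95% interval -0.10 to 0.30). In all 3 genes the groups overlapped. MTPAP and TUT1 are less certain than the other members, since 33.7% and 38.5% of their 31-base words occur in transcripts of other genes. For MTPAP the leading one is the pseudogene GOLGA2P6, which had 0 counts. For TUT1 it is AP002990.1, a same-strand gene that covers 40.4% of its exonic bases. AP002990.1 had 2.51 ± 0.693 CPM under cisplatin and 3.85 ± 0.775 CPM under PBS and was called lower (-0.66 ± 0.24, edgeR adjusted p = 0.0458). Its part in the values of TUT1 was not tested.

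TPM, which divides by transcript length, allows the levels of different genes to be compared. In the cisplatin libraries PAPOLA was the most abundant at 62.1 ± 4.03 TPM (SD, n = 3), followed by TUT1 at 19.8 ± 0.535, TENT5C at 18.5 ± 0.819, TENT4A at 14.5 ± 0.550, MTPAP at 10.1 ± 1.43, TENT2 at 9.77 ± 0.283, PAPOLG at 7.70 ± 0.493, TENT5A at 6.72 ± 0.207, TENT5B at 5.36 ± 0.0862 and TENT4B at 2.87 ± 0.698 TPM. Of the neighbours in that order, MTPAP and TENT2 had overlapping ranges and the others did not. In the PBS libraries PAPOLA was again first at 86.5 ± 8.70 TPM, followed by TUT1 at 21.6 ± 3.03, TENT4A at 19.4 ± 2.09, TENT2 at 11.9 ± 0.871, MTPAP at 11.6 ± 2.25, PAPOLG at 7.31 ± 2.08, TENT5A at 6.07 ± 0.639, TENT5C at 4.73 ± 0.592, TENT4B at 4.21 ± 0.477 and TENT5B at 2.97 ± 0.536 TPM. There the ranges of TUT1 and TENT4A, TENT2 and MTPAP, MTPAP and PAPOLG, PAPOLG and TENT5A, and TENT5C and TENT4B overlapped. TENT5C thus held rank 3 under cisplatin and rank 8 under PBS.

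**Figure D3:**
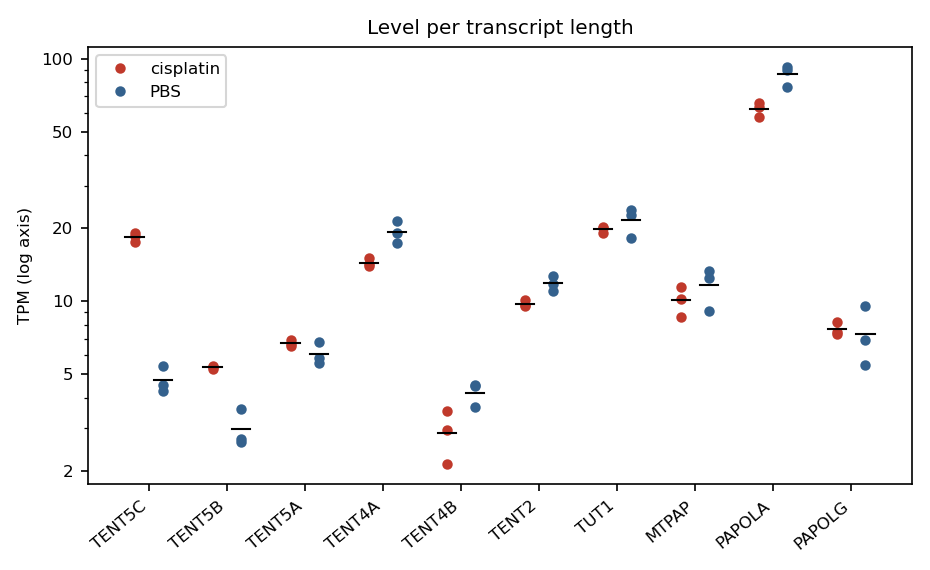
TPM (log axis) of the 10 genes in cisplatin (red, left of each pair) and PBS libraries (blue, right of each pair); points are libraries and lines are means of 3. TENT5C averages 18.5 TPM under cisplatin, next to TUT1 at 19.8 TPM, and 4.73 TPM under PBS, next to TENT4B at 4.21 TPM.

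The total over the 10 genes was 160, 161 and 151 TPM in the cisplatin libraries, against 165, 170 and 193 TPM in the PBS libraries. On this scale every cisplatin total was below every PBS total, but not in CPM, where the members summed to 512, 531 and 503 in the cisplatin libraries, against 491, 532 and 505 in the PBS libraries, and the groups overlapped. TENT5C, chosen for its rise, supplied 11.7% ± 0.745 of the summed TPM under cisplatin and 2.68% ± 0.108 under PBS (SD, n = 3). PAPOLA supplied 39.4% ± 1.25 of the summed TPM under cisplatin and 49.1% ± 3.46 under PBS. Without TENT5C the members summed to 139 ± 5.83 TPM under cisplatin and 172 ± 14.2 TPM under PBS.

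The deposited tables also give a transcript length for each gene and library, averaged over isoforms by their estimated abundance, so a shift in it reflects a shift in the isoforms to which reads were assigned. It did not vary for TENT5B and TENT5C, each with 1 transcript in GENCODE 29. Their deposited lengths, 2382 and 5654 bases, differ from the 2368 and 5751 exonic bases of that release. For TENT4B it was 5630, 7089 and 6167 bases in the cisplatin libraries, against 5179, 5331 and 5431 bases in the PBS libraries. For TUT1 it was 2531, 2490 and 2462 bases under cisplatin, against 2297, 2322 and 2333 bases under PBS. In both genes the cisplatin libraries were all longer (exact two-sided permutation p = 0.1, the smallest that 3 against 3 allows; adjusted p = 0.4 over the 8 genes whose length varied). Among all tested genes with a varying length, 18.4% had groups that did not overlap, so 2 of 8 is near that background. For PAPOLG it was 4379, 4069 and 3591 bases under cisplatin, against 5428, 5109 and 4330 bases under PBS, and the ranges overlapped (exact permutation p = 0.2, adjusted p = 0.4). For TENT2 the cisplatin libraries averaged 2813 ± 215 bases and the PBS libraries 2400 ± 323 bases (SD, n = 3; exact permutation p = 0.2, adjusted p = 0.4). The offset for effective length used a separate deposited value for each gene and library, not the lengths above. With it the log2 fold change of TENT4B became -0.48, that of PAPOLG 0.18 and that of TENT2 -0.19, none of them called. The direction of PAPOLG and TENT2 thus depends on whether effective length is taken into account.

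**Figure D4:**
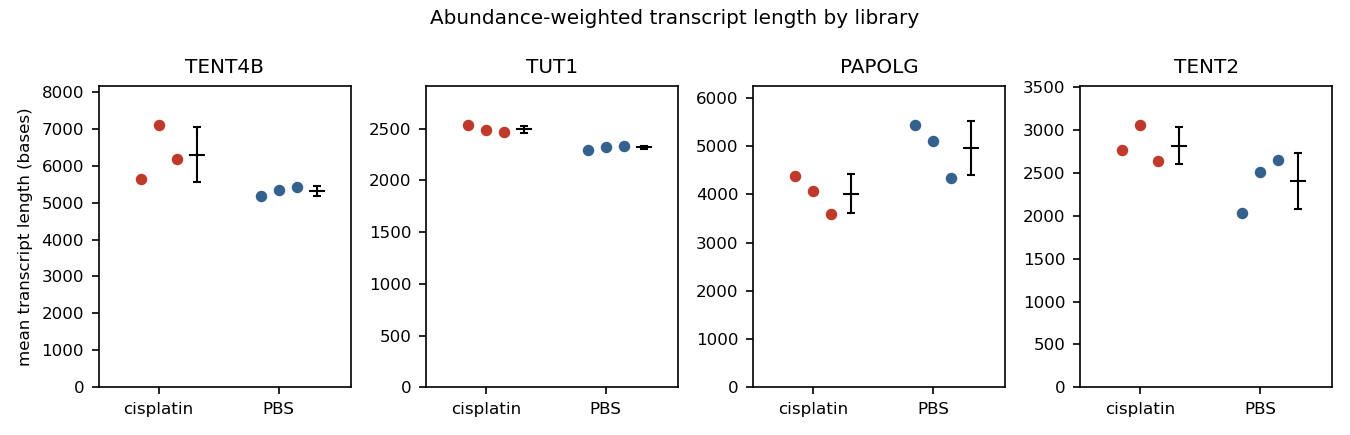
Abundance-weighted transcript length in bases (axes from 0) of TENT4B, TUT1, PAPOLG and TENT2 in cisplatin (red, left) and PBS libraries (blue, right), with mean and SD of 3 libraries. TENT4B and TUT1 are longer in every cisplatin library, and the groups overlap for PAPOLG and TENT2.

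Genes that act around the tail were read from 5 lists, and calls were mostly downward. Among the other terminal nucleotidyltransferases and partner proteins, 9 of 20 tested genes were lower and 0 higher, with a median log2 fold change of -0.31, against -0.0003 over all genes. The background for a lower call is 19.3%. Without cisplatin replicate 3 the list held 5 calls, with 4455 called among all genes in place of 5752. With the offset for the trend with transcript length it held 6 calls (5118 among all genes) and a median of -0.19, against -0.0097 over all genes. On log2(TPM + 1) it held 7 calls (2861 among all genes) and a median of -0.11, against -0.0711 over all genes. DESeq2 and limma-voom also called 0 of these genes higher, and CPEB1 alone was higher at an unadjusted p under 0.05 (edgeR adjusted p = 0.0596). Both FNDC3 proteins, membrane partners of TENT5 enzymes at the endoplasmic reticulum, were among the 9. FNDC3A had 77.8 ± 10.4 CPM under cisplatin and 103 ± 11.3 CPM under PBS (SD, n = 3; log2 fold change -0.40, edgeR adjusted p = 0.0101), and its call was lost with the offset for the trend with transcript length (-0.15, edgeR adjusted p = 0.253) and without cisplatin replicate 3 (-0.32, edgeR adjusted p = 0.0505). FNDC3B had 46.7 ± 1.53 CPM under cisplatin and 54.9 ± 3.97 CPM under PBS (-0.23, edgeR adjusted p = 0.0421), but its direction turned on log2(TPM + 1) (0.15, limma adjusted p = 0.494) and its call did not survive leaving out any cisplatin library or PBS replicate 2 or 3 (edgeR adjusted p 0.0703 to 0.144). ZCCHC2, a zinc knuckle protein, had 14.6 ± 1.75 CPM under cisplatin and 29.6 ± 1.01 CPM under PBS and fell by 1.01 ± 0.11 on the log2 scale (edgeR adjusted p = 4.3e-05). PNPT1, the mitochondrial RNA-degrading polynucleotide phosphorylase, had 41.6 ± 0.450 CPM under cisplatin and 59.2 ± 3.07 CPM under PBS, and fell by 0.51 ± 0.08 (edgeR adjusted p = 4.5e-04). TUT4 and TUT7, which add uridines to mRNAs with short tails, had log2 fold changes of -0.26 and -0.20 and were not called (edgeR adjusted p = 0.0581 and 0.163).

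Poly(A) binding proteins and their interactors were higher in 2 and lower in 4 of 12 tested genes, with a median of 0.03, against 18.9% called higher and 19.3% called lower among all genes. PABPC1, the main cytoplasmic poly(A) binding protein, was far more abundant per transcript length than any member, at 917 ± 99.6 TPM under cisplatin and 1007 ± 164 TPM under PBS (SD, n = 3), and was not called (-0.04, edgeR adjusted p = 0.671). PAIP2B, an inhibitor of PABPC1, rose by 0.52 ± 0.10 (edgeR adjusted p = 0.00188), but did not pass on log2(TPM + 1) (0.33, limma adjusted p = 0.123). PAIP1, which stimulates translation through PABPC1, fell by 0.44 ± 0.07 (edgeR adjusted p = 4.9e-04) and LARP1, a regulator of ribosomal protein mRNAs, by 0.51 ± 0.07 (edgeR adjusted p = 2.7e-04). PABPC5, at 1.44 ± 0.458 CPM under cisplatin and 0.685 ± 0.234 CPM under PBS, also passed (1.07 ± 0.38, edgeR adjusted p = 0.0415), but not in DESeq2 and not when any library other than PBS replicate 2 was left out.

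Deadenylases and their complexes, which remove tails, were higher in 1 and lower in 5 of 20 genes, with a median of -0.14. The share called, 30.0%, was below the 38.2% of all genes. The catalytic subunit CNOT6 had 82.8 ± 6.03 CPM under cisplatin and 113 ± 12.8 CPM under PBS and fell by 0.44 ± 0.09 (edgeR adjusted p = 0.00292), but was not called with the offset for the trend with transcript length (-0.21, edgeR adjusted p = 0.0596). The scaffold CNOT1 fell by 0.23 ± 0.07 (edgeR adjusted p = 0.0236) and the catalytic subunit CNOT8 rose by 0.21 ± 0.07 (edgeR adjusted p = 0.0360), but both directions were reversed on the TPM scale. CNOT1 also lost its call without any one cisplatin library or PBS replicate 1, and CNOT8 without cisplatin replicate 1 or 2 or PBS replicate 1 or 3. In place of 6 calls, the list held 1 without cisplatin replicate 1 and 2 without cisplatin replicate 2. It held 3 without cisplatin replicate 3, PBS replicate 1 or PBS replicate 3. In the same order, 4205, 4757, 4455, 5099 and 4794 of all genes were called, in place of 5752.

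Nuclear cleavage and polyadenylation factors, the machinery that PAPOLA works with, were higher in 1 and lower in 5 of 18 genes, with a median of -0.11, so 33.3% were called, against 38.2% of all genes. CSTF1, a subunit of the cleavage stimulation factor, had 49.3 ± 3.08 CPM under cisplatin and 33.6 ± 2.52 CPM under PBS (SD, n = 3) and rose by 0.56 ± 0.09 (edgeR adjusted p = 5.8e-04). CSTF2, the RNA-binding subunit of the same complex, fell by 0.37 ± 0.08 (edgeR adjusted p = 0.00345), and PCF11, which couples cleavage to the end of transcription, by 0.51 ± 0.10 (edgeR adjusted p = 0.00155). On log2(TPM + 1) the calls of CSTF1 (0.39, limma adjusted p = 0.111) and CSTF2 (-0.41, limma adjusted p = 0.0535) were lost. Exosome subunits and adaptors were higher in 1 and lower in 6 of 19 genes, with a median of -0.14, and their share of 36.8% is about that of all genes (38.2%). RBM7, an adaptor of the nuclear exosome, had 42.9 ± 11.1 CPM under cisplatin and 28.1 ± 4.33 CPM under PBS and rose by 0.59 ± 0.16 (edgeR adjusted p = 0.0134), although its groups overlapped and the call was lost without PBS replicate 1 or 3 and on log2(TPM + 1) (0.24, limma adjusted p = 0.262). The cytoplasmic exosome nuclease DIS3L fell by 0.53 ± 0.09 (edgeR adjusted p = 5.9e-04) and the adaptor ZC3H18 by 0.37 ± 0.09 (edgeR adjusted p = 0.00902). The call of ZC3H18 was lost on log2(TPM + 1) (-0.42, limma adjusted p = 0.0522). In place of 7 calls, the exosome list held 4 without cisplatin replicate 2 or PBS replicate 1. There 4757 and 5099 of all genes were called, in place of 5752.

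**Figure D5:**
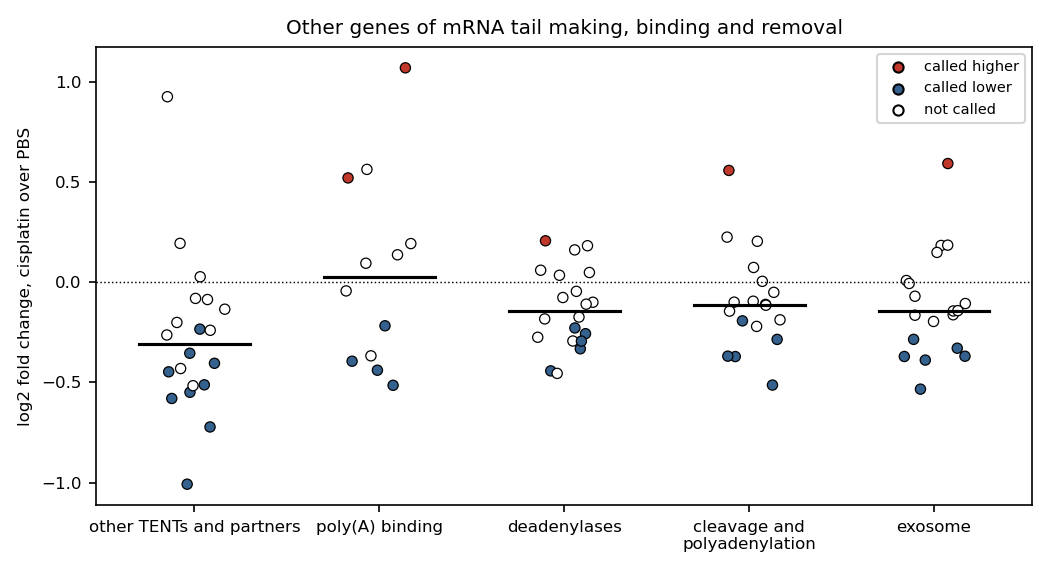
Log2 fold change of CPM, cisplatin over PBS, of every tested gene in the 5 lists; red points were called higher, blue lower, white not called, and the bar is the median of the list. Medians run from -0.31 for the other terminal nucleotidyltransferases and partners to 0.03 for the poly(A) binding list.

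Across the 6 libraries the genes whose log2 CPM followed TENT5C most closely, among 11190 genes averaging 5 CPM or more, were STK38, CUEDC2, SHF, VIM and IL13RA1, with Pearson correlations of 0.999, 0.998, 0.998, 0.998 and 0.998. The 6 libraries form 2 treatment groups, so such a correlation mostly records that a gene differed between them with little spread within each. STK38, a kinase of the NDR family, averaged 63.6 ± 0.671 CPM under cisplatin and 49.5 ± 0.648 CPM under PBS (SD, n = 3), a log2 fold change of 0.36. VIM, the intermediate filament vimentin, averaged 374 ± 6.84 CPM under cisplatin and 225 ± 3.88 CPM under PBS (0.73), and IL13RA1, an interleukin receptor subunit, averaged 43.0 ± 0.892 CPM under cisplatin and 25.9 ± 0.742 CPM under PBS (0.73). SHF, an adaptor protein, had a log2 fold change of 0.52 and CUEDC2 one of 0.21, so all 5 values were smaller than that of TENT5C. The call of CUEDC2 was lost in 12 of 19 alternatives, among them DESeq2 and each cisplatin library left out, with values down to 0.0092 with the offset for the trend with transcript length (edgeR adjusted p = 0.94). That of STK38 was lost on log2(TPM + 1) (0.26, limma adjusted p = 0.152).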

How the data were processed

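Total RNA was extracted with TRIzol and 1.5 µg per sample went into ABclonal libraries, per the labels' protocols. Reads were aligned with STAR 2.7.9 to GRCh38 (hg38), per the submitters' processing notes. Per the file headers, which have RSEM's column names, the authors deposited for each gene an expected count (estimated, often not whole, not normalized), a TPM value scaled to a fixed total, and a transcript length in bases. The FPKM values that the authors deposited were not used. Not given in the sources used here: the version of the quantifier, its annotation, whether strand was used and whether RNA was selected by its tail.

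Symbols matched 61399 of 61552 identifiers, and positions came from GENCODE 29. After rounding, expected counts entered edgeR 4.0.16 under R 4.3.3 (filterByExpr with a minimum count of 10 and total of 15, TMM, quasi-likelihood test on group, Benjamini-Hochberg over all 15063 genes tested), which was first tested on simulated data. Each SE was taken as the size of the log2 change over the root of its F statistic. Levels between genes were compared in TPM. Alternatives, whose effect the closing section gives, included other filters and scalings, libraries left out, a replicate block, offsets for each gene's effective length per library or for a smooth trend on transcript length in each library, and TPM; they used limma 3.58.1 and DESeq2 1.42.0. Replicates differed by more than sampling noise (chi-square per degree of freedom 2.93 to 20.9). Promoter sequences are RefSeq's, found for 9 of the 10 members.

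The members, gene lists and alternatives were chosen with earlier results of these data known. The genes named are the 10 members, from each of the 5 lists up to 2 called genes per direction with the smallest adjusted p, the 5 genes most correlated with TENT5C, and the nearest tested gene on each side of it. FNDC3A, FNDC3B, TUT4, TUT7, PABPC1, CPEB1, TENT5D, TENT5C-DT and the genes sharing sequence with members were added after their values were seen.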

Additional observations from a re-analysis of the deposited data

How the results depend on the processing

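Over 19 alternatives, 13 of the 32 named genes kept their direction and their side of the threshold throughout, among them TENT5B, PAPOLA and MTPAP. TENT5C, chosen for its rise, is also counted among the 13 and carries no test. In all, 516 of 607 gene values kept both, 73 lost the call, 1 gained it and 17 turned sign. With limma on log2(TPM + 1) and on log2(TPM + 0.1), called genes numbered 2861 and 2815 in place of 5752. Of the members other than TENT5C, TENT5B and PAPOLA kept their calls on either scale, and TENT5A and TENT4A lost them. On either scale 3 deadenylase genes, 3 cleavage factors and 3 exosome genes were called. The offset for effective length gave 3 called exosome genes (3967 among all genes). The offset for the trend with transcript length gave 1 called deadenylase gene (5118 among all genes). When libraries were left out one at a time, 4205 to 5283 of all genes were called. In the same fits, 5 to 10 were called among the partners, 1 to 6 among the deadenylases and 4 to 6 in the exosome list. None of the genes whose sign turned was called where it turned. In the order effective length offset, log2(TPM + 1), log2(TPM + 0.1), TENT2 gave -0.19, -0.25 and -0.27, PAPOLG 0.18, 0.10 and 0.11, TUT1 -0.0329, -0.11 and -0.11, and CNOT1 0.21, 0.13 and 0.13. CNOT8 gave -0.0374 on log2(TPM + 1) and -0.0379 on log2(TPM + 0.1). With the length trend offset TENT4B gave 0.0314 and PAPOLG 0.0305. TENT2 ran from -0.0025 to 0.14 when single libraries were left out. The causes were not tested. The difference of 9.06 percentage points in the share of TENT5C in the summed TPM of the members (cisplatin minus PBS) became 14.1 with CPM not divided by length, where long transcripts weigh more by construction.

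No pairing by replicate number was seen: the correlations of deviations between same-numbered libraries were 0.0658, 0.123 and -0.0760, and not every library correlated best with its own number. With 3 libraries a group, these values cannot settle whether the samples were paired. With the replicate number as a block (paired analysis), 5819 genes were called. TENT5A lost its call (edgeR adjusted p = 0.0507), and no other member changed its call. Depth limits TENT5B most among the members, at 46 counts in its shallowest library.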
